A study of Mus musculus with 48 samples.

Results

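The mRNAs described here come from 10 immediate-early genes: Egr1, Egr2, Egr3, Arc, Fos, Fosb, Fosl1, Jun, Junb and Ier2. They are 10 of the 50600 genes listed in the count files and 10 of the 13889 that passed the filter on low counts. The group was chosen by family and by the cytoplasmic change under N6L. In that change Egr3, Egr2 and Arc ranked 1, 13 and 14 of the tested genes. The cytoplasmic values are therefore given as a description without a test. The cells were mPDAC, 1 mouse pancreatic ductal adenocarcinoma cell line labelled as FVB/N x C57BL6 and 8-week-old. The N6L group was 3 cultures (numbers 1, 2 and 3) kept for 48 h with 50 µM N6L, a pseudopeptide antagonist of nucleolin, and the non-treated (NT) group was 3 cultures (numbers 1, 2 and 4) without it. All 6 cultures were exposed to emetine, which freezes ribosomes on mRNA, just before lysis. Each lysate gave a cytoplasmic and a polysomal library of poly(A)+ RNA, which makes 12 libraries in 4 groups of 3.

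Immediate-early genes are transcribed within minutes of a growth factor, stress or calcium signal, from promoters whose factors (SRF with ELK proteins, CREB) are already in place and are switched on by MAP kinases. Their mRNAs are short-lived, many of them through AU-rich elements in the 3′ UTR, and their first products are transcription factors. The EGR proteins are zinc-finger factors that bind GC-rich sites, and FOS and JUN proteins pair through leucine zippers to form AP-1.

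The promoters of the members show where such inputs could enter, and RefSeq entries (GRCm38.p6, from 250 bases before to 50 after the start) were used for 5 members, Egr2, Fos, Fosb, Jun and Junb. Capitals mark 4 kinds of motif, searched on both strands: the CArG box (the site of SRF), TGACNTCA (a full CRE-like site), the shorter CRE core TGACG, and TATAAA. Among all 32851 promoters of this length, 1.63% hold a CArG box, 8.83% TGACNTCA, 20.8% TGACG and 13.6% TATAAA.
Egr2, chr10:67537619-67537918, plus strand: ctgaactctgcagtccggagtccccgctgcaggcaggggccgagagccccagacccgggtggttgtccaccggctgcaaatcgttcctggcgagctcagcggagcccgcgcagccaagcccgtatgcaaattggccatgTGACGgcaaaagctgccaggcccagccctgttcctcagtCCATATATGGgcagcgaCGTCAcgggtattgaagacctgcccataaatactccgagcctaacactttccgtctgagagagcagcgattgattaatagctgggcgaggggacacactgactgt
Fos, chr12:85473640-85473939, plus strand: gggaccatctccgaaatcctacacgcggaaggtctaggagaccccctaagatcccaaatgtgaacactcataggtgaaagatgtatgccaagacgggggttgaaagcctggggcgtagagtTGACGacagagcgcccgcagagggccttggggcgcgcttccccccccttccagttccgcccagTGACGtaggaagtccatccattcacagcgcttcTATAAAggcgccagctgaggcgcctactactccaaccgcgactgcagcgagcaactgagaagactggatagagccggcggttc
Fosb, chr7:19309996-19310295, minus strand: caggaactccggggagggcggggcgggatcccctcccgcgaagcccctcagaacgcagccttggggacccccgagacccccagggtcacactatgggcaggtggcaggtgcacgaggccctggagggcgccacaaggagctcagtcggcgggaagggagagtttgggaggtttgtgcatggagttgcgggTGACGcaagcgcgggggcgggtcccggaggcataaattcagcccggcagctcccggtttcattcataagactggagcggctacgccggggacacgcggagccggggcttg
Jun, chr4:95052173-95052472, minus strand: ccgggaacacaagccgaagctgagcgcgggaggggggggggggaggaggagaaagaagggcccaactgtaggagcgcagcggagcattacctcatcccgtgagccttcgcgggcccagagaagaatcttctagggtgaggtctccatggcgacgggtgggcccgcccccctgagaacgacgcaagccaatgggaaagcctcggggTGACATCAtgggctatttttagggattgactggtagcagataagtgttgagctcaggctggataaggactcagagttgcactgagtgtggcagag
Junb, chr8:84978699-84978998, minus strand: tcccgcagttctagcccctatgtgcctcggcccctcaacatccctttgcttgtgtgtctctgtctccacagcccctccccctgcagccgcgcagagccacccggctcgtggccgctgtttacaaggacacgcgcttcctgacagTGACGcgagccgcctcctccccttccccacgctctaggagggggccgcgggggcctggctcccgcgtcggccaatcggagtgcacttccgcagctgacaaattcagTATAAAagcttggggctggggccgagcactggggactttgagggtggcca

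Counted from the start as 0, the CArG box of Egr2 lies from -72 to -63, between CRE cores that begin at -111 and -55. The Fos window holds CRE cores at -129 and -66 and TATAAA at -33. A CRE core was also found in Fosb at -60 and in Junb at -106, so 4 of these 5 windows hold one. Jun holds none, but carries the full CRE-like site TGACATCA from -45 to -38. In Junb, TATAAA begins at the RefSeq start itself, which lies 30 bases from the start of the GENCODE transcript. Of 2 further motifs, the AP-1 site TGANTCA (7.81% of all promoters) had no match in the 5 windows, and the EGR site GCGNGGGCG (5.55%) matched once, in Fosb at -50. These are matches of letters in a short window, and binding was not measured.

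The pentamer ATTTA, the core of AU-rich elements, occurs in the 3′ UTR of 8 of the 10 representative transcripts (GENCODE vM21, GRCm38), and in 66.8% of 12007 tested genes with a 3′ UTR. Egr3 has 7 copies, Fos and Jun 4 each, Egr2 3, Egr1 and Junb 2 each, Fosb and Fosl1 1 each, and Arc and Ier2 have 0. Number and clustering of the copies differed: in Egr3 no stretch of 30 bases holds more than 1 copy, whereas the densest stretches of Fos and Jun hold 2 each, shown with ATTTA in capitals, overlapping in Fos and spaced in Jun.
Fos, chr12:85477100-85477129, plus strand: ttgtgttttcaATTTATTTAttaagatgga
Jun, chr4:95049207-95049236, minus strand: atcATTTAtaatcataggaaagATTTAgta

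The representative transcripts ran from 1522 bases in Ier2 to 4484 bases in Egr1, with a median of 3010 against 2998 over the tested genes. Their coding regions were shorter, with a median of 1089 bases against 1374. In the annotation, Ccdc85b overlaps Fosl1, Junos overlaps Jun and Prdx2 overlaps Junb, each on the opposite strand. The library kit keeps the strand, but which strand setting the counting had is not stated, and reads from these overlaps are therefore uncertain. Prdx2 is the most abundant of these neighbours, at a mean of 388 CPM (counts scaled to library size, with TMM factors).

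Library totals ran from 19519911 to 44972333 counts, and members were far from the detection limit except for Egr3 in non-treated cells, which had 9 to 78 counts a library. The keratins of ductal cells were high: the 7 ductal markers summed to 6427.4 CPM or more in every library, although Epcam was near 0. Marker lists of fibroblasts, endothelium, leukocytes and neurons each summed to 2.51 CPM or less in every library. Of the 4 neuronal markers, set beside the neuronal gene Arc, Syn1 was detected at a mean of 2.02 CPM in NT and 1.74 CPM in N6L cytoplasm, and the other 3 were at 0.196 CPM or less in every library. Of 5 acinar markers only Cela1 was above 1 CPM on average. CPM values are relative to all mRNA in a library. A change in the number of cells, in the RNA content of a cell or in the amount of polysomes cannot be told from them.

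**Figure D1:**
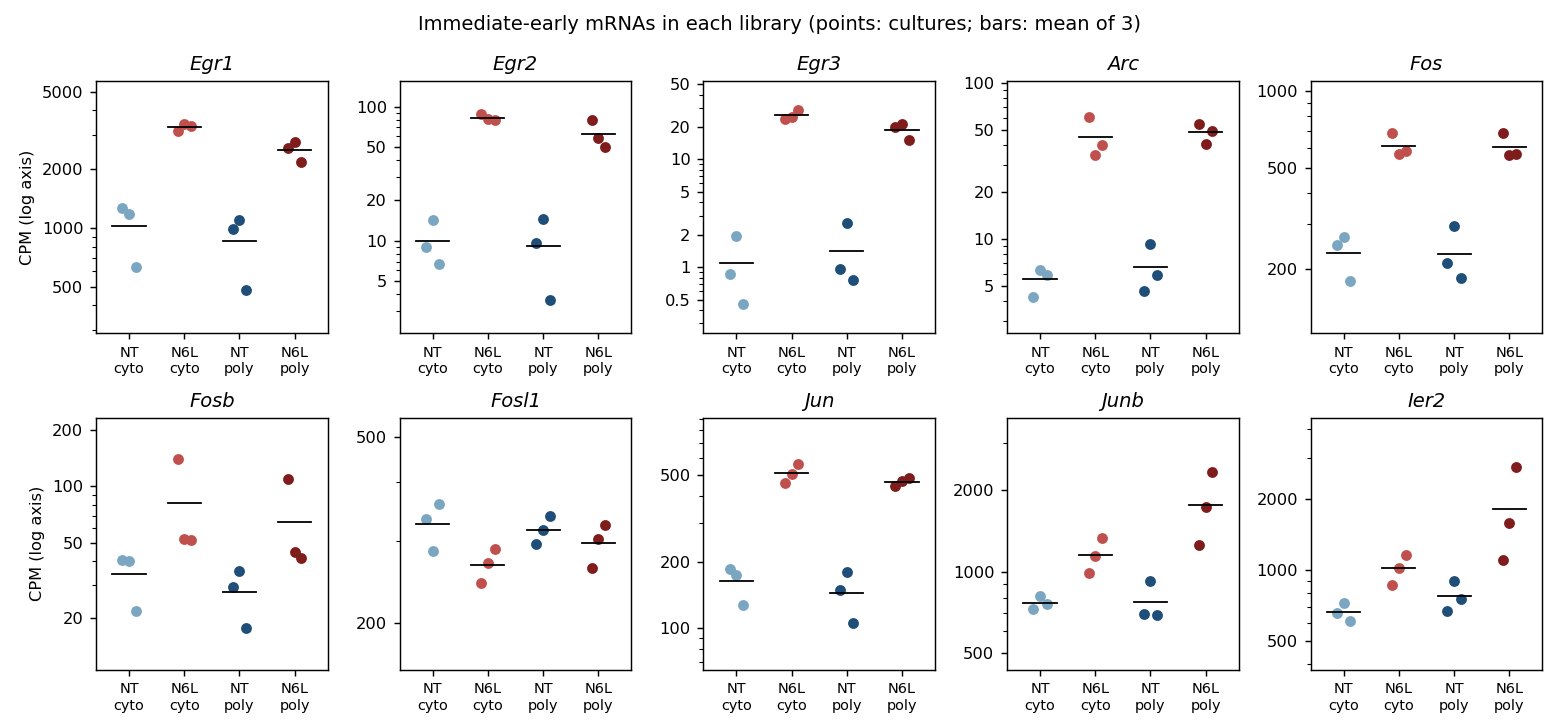
TMM-scaled CPM (log axis) of the 10 mRNAs in non-treated (NT) and N6L cytoplasm (cyto) and polysomes (poly). Points are the 3 cultures of a group in the order of their numbers and bars are means. In 9 panels all N6L points of a fraction lie above all NT points, and in the Fosl1 panel they overlap.

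The EGR mRNAs differed from each other by orders of magnitude before treatment and were all higher with N6L. Egr1, the founding member, was at 1262, 1174 and 627.8 CPM in the cytoplasm of NT cultures 1, 2 and 4 and at 3120.5, 3421 and 3345 CPM in N6L cultures 1, 2 and 3. This was a 3.23-fold difference (log2 1.69 ± 0.29, standard error) with no overlap, and NT culture 4 was the low one among the controls. Egr2, known for its part in myelination and hindbrain patterning, was at 8.94, 14.2 and 6.76 CPM without and 88.1, 80.5 and 79.1 CPM with N6L, an 8.28-fold difference. Egr3, which shares target sites with Egr1 and Egr2, was close to silent without N6L, at 0.855, 1.95 and 0.451 CPM, and reached 23.7, 24.8 and 29.0 CPM. Its log2 fold change of 4.57 ± 0.45 was the highest of all 13889 genes, and Egr2 (3.05 ± 0.39) ranked 13. Because the Egr3 baseline rests on 28, 43 and 9 counts, its fold is the least certain of the group, and leaving out 1 culture moved it between 4.22 and 5.24.

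Arc encodes a capsid-forming protein that neurons use to remodel synapses, and it is a classical target of the same promoter factors. In the cytoplasm it was at 4.27, 6.31 and 5.91 CPM in NT cultures and at 60.1, 34.3 and 39.8 CPM in N6L cultures. The groups lay far apart, with a log2 fold change of 3.03 ± 0.28 and a rank of 14 among all genes. Among 8959 genes averaging 10 CPM or more, Egr3, Egr2 and Arc held the ranks 1, 2 and 3 in the cytoplasm.

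The AP-1 subunits split into mRNAs that were clearly higher and 1 that was not. Fos, whose protein needs a JUN partner to bind DNA, went from 249.0, 267.7 and 179.8 CPM in NT cytoplasm to 684.7, 565.4 and 583.2 CPM in N6L cytoplasm (log2 1.40 ± 0.20). Jun, the main partner of Fos, went from 186.5, 174.3 and 127.6 CPM to 459.3, 506.7 and 560.4 CPM (log2 1.64 ± 0.20). Both mRNAs were thus about as far from their controls as Egr1, with no overlap. Fosb, a slower relative of Fos, was at 40.7, 40.0 and 21.8 CPM without and 139.5, 52.4 and 51.8 CPM with N6L. N6L culture 1 alone set most of that distance: the log2 fold change of 1.25 ± 0.44 was 0.61 without it.

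Junb, an AP-1 subunit that often restrains Jun, was already abundant at 723.1, 808.0 and 755.7 CPM and stood at 990.5, 1143 and 1333 CPM with N6L. Ier2, a small nuclear protein of the same early wave, was at 658.7, 726.9 and 611.3 CPM without and 869.7, 1025 and 1161 CPM with N6L. Their cytoplasmic differences were the smallest of the 9 that were higher, at 1.52-fold for Junb and 1.53-fold for Ier2. Fosl1, a FOS relative induced by lasting ERK activity, was at 334.4, 284.6 and 359.3 CPM against 243.1, 268.3 and 288.0 CPM, and its groups overlapped (log2 -0.29 ± 0.15).

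Over the 10 mRNAs the median cytoplasmic log2 fold change was 1.52, against 0.04 over all tested genes. In 9 of the 10 every N6L culture was above every NT culture, an arrangement found in 29.3% of all genes in that direction. Since this change led to the choice of the members, neither comparison is a test of them. The members together took 0.254% to 0.354% of all counts in NT cytoplasm and 0.723% to 0.811% in N6L cytoplasm. Egr1 alone accounted for 0.338% to 0.377% of counts in the latter. Within the controls, culture 4 gave the lowest value in both fractions for 6 members, Egr1, Egr2, Egr3, Fos, Fosb and Jun, and without it the median was 1.31.

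Per kilobase of transcript, the order of cytoplasmic levels changed. Without N6L, Ier2 (437.4 ± 38.2 CPM per kilobase, SD, n = 3) and Junb (421.4 ± 23.7) stood highest with overlapping libraries, ahead of Egr1 (227.8 ± 76.6) and Fosl1 (174.9 ± 20.4), which overlapped each other. Fos (110.1 ± 22.0), Jun (51.0 ± 9.75), Fosb (9.03 ± 2.83), Egr2 (3.36 ± 1.29), Arc (1.80 ± 0.353) and Egr3 (0.276 ± 0.197) followed, each apart from its neighbour. With N6L, Egr1 (734.9 ± 34.8) moved to the top, where its libraries overlapped those of Ier2 (669.3 ± 95.7), which in turn overlapped Junb (638.8 ± 95.0). Fos (289.9 ± 30.5) stood alone below them, and Jun (159.5 ± 15.9) passed Fosl1 (143.0 ± 12.1) with overlap. The low end was Egr2 (27.8 ± 1.62), Fosb (21.5 ± 13.3) and Arc (14.6 ± 4.44), whose neighbours overlapped, and Egr3 (6.55 ± 0.71).

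In polysomes the question was whether the mRNAs also took a larger share of the polysomal mRNA. The study reports a strong decrease of the polysome peaks under N6L. A larger share is therefore not a measure of the amount of an mRNA on ribosomes. These are separate libraries, but from the same lysates as the cytoplasmic ones that chose the members, so they are no independent set of cultures. By the quasi-likelihood test of edgeR (FDR by the Benjamini-Hochberg method over all genes, limit 0.05), 8 of the 10 mRNAs rose, while 6.01% of all genes rose and 3.66% fell. In 9 of 10 all N6L polysome libraries lay above all NT ones, against 13.7% of all genes. The median log2 fold change was 1.47, against 0.00 over all genes.

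Among the EGR mRNAs, Egr3 rose from 0.955, 2.55 and 0.753 CPM to 20.0, 21.2 and 15.1 CPM in polysomes (log2 3.70 ± 0.43, FDR 0.000609). Egr2 rose from 9.60, 14.4 and 3.61 CPM to 79.0, 58.6 and 49.9 CPM (log2 2.77 ± 0.39, FDR 0.0018). Egr1 rose from 981.2, 1102 and 478.0 CPM to 2572, 2749 and 2186 CPM (log2 1.55 ± 0.29, FDR 0.00629). In each of these 3 genes the N6L and NT libraries were clearly separated, while the fold in polysomes was somewhat below that in the cytoplasm. By edgeR this difference between the fractions did not pass (FDR 0.886 for Egr1, 0.818 for Egr2 and 0.563 for Egr3). The cytoplasmic fold had also led to the choice of the genes. The polysomal call of Egr1 ended without N6L culture 2 (FDR 0.0575).

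Arc rose from 4.62, 9.24 and 5.84 CPM to 54.3, 40.7 and 49.5 CPM in polysomes, with the lowest FDR of the group (log2 2.87 ± 0.28, FDR 0.000252). Jun rose from 148.7, 180.0 and 104.8 CPM to 445.4, 470.7 and 483.1 CPM (log2 1.69 ± 0.20, FDR 0.000642). Fos rose from 210.9, 294.5 and 184.3 CPM to 684.1, 560.7 and 568.5 CPM (log2 1.39 ± 0.20, FDR 0.00187). For Jun and Fos the polysomal fold was that of the cytoplasm to within 0.05 on the log2 scale. Fosb was at 29.2, 35.6 and 17.6 CPM against 108.9, 44.6 and 41.6 CPM, without overlap, but did not pass (log2 1.25 ± 0.44, FDR 0.0893). As in the cytoplasm, N6L culture 1 was the high one, and without it the log2 fold change was 0.65 (FDR 0.17).

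Junb and Ier2 were the members whose polysomal log2 fold change exceeded the cytoplasmic one by most, ahead of Fosl1 and Jun. Junb rose from 694.7, 924.6 and 688.8 CPM to 1250.4, 1730.3 and 2334 CPM (log2 1.20 ± 0.21, FDR 0.00487). Ier2 rose from 673.5, 904.7 and 756.7 CPM to 1104, 1594 and 2751.5 CPM (log2 1.22 ± 0.26, FDR 0.0118). N6L culture 3 was the highest for both, and without it Ier2 stood at 0.79 (FDR 0.0256) and Junb at 0.95 (FDR 0.0126). Both calls ended without NT culture 1 (FDR 0.0535 for Junb and 0.0908 for Ier2), and that of Ier2 also without N6L culture 2 (FDR 0.0595) and in a fit of only these 2 groups (FDR 0.0502). Fosl1 was at 295.1, 315.9 and 338.4 CPM without and 261.9, 303.1 and 324.5 CPM with N6L, overlapping (log2 -0.09 ± 0.15, FDR 0.722).

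**Figure D2:**
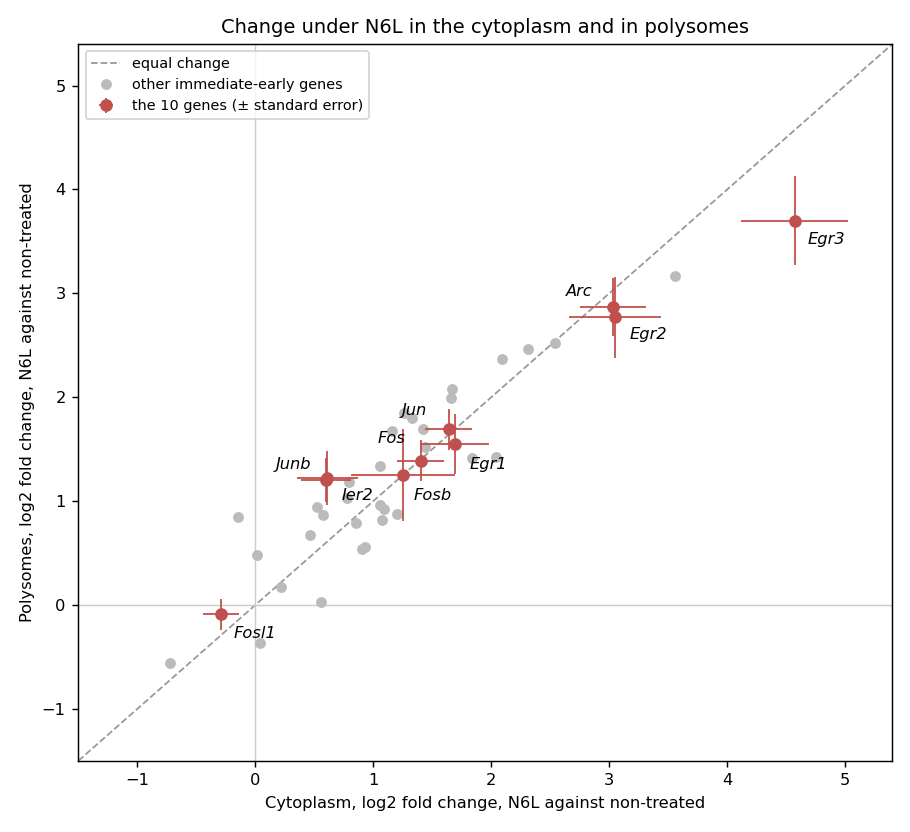
Log2 fold change under N6L in the cytoplasm (x) and in polysomes (y), with standard errors for the 10 genes. Grey points are 32 other immediate-early genes and the dashed line marks equal change. Egr3 lies lowest relative to the line (4.57 against 3.70), Fos, Fosb and Jun on it, and Junb and Ier2 above it (0.60 against 1.20 and 0.61 against 1.22).

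In non-treated cells the polysome-to-cytoplasm difference of the 10 mRNAs ran from -0.32 (Fosb) to 0.42 (Egr3) on the log2 scale, with a median of -0.03 against 0.03 over all genes. By edgeR none of the 10 passed, and 0.209% of all genes did. None of the 10 had an unadjusted p under 0.05 in that fit either, while 1855 of the 13889 genes did. DESeq2 called 0 of the 10 (lowest FDR 0.659) and 1.97% of all genes. With the culture as a replicate block 2 members had an unadjusted p under 0.05, and with block and length and GC offset 3. The share of all genes at that unadjusted limit was not counted for these 2 fits. At the FDR limit no member passed in them (lowest FDR 0.134 and 0.0526), while 1.46% and 4.07% of all genes did.

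With N6L, Junb and Ier2 were the members called with a larger share in polysomes than in cytoplasm, and the remaining 8 did not pass. The log2 ratios of the 3 cultures were 0.34, 0.60 and 0.81 for Junb and 0.34, 0.64 and 1.24 for Ier2, all above 0. Those of Fosl1 (0.11, 0.18 and 0.17) were all above 0 too. Fosl1 (0.15 ± 0.15) and Arc (0.11 ± 0.26) had positive values in the fit that did not pass. The fit gave 0.62 ± 0.21 (FDR 0.031) for Junb and 0.83 ± 0.26 (FDR 0.0211) for Ier2. Among all genes 18.4% were higher and 20.6% lower in this comparison, so 2 of 10 higher is near the background. Egr1 (-0.40 ± 0.28), Egr2 (-0.40 ± 0.36) and Egr3 (-0.46 ± 0.36) had negative values that did not pass. These ratios share the N6L cytoplasmic libraries with the change that chose the members. A high value in those libraries lowers the ratio, so the ratios are not independent of the choice.

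Both calls depended on the fit. With the culture as a replicate block, since both fractions of a culture come from one lysate, 5 members passed and 53.7% of all genes did (26.1% higher and 27.6% lower). These were Junb (0.58, FDR 0.00372) and Ier2 (0.74, FDR 0.00472) above 0 and Egr1 (-0.40, FDR 0.0131), Egr3 (-0.47, FDR 0.0345) and Fosb (-0.30, FDR 0.0407) below 0. With an offset for transcript length and GC content instead, 17.1% of all genes but none of the members passed, Junb stood at 0.01 (FDR 0.968) and Ier2 at 0.11 (FDR 0.717). With block and offset together 4 were lower, Egr1 (-0.36), Egr2 (-0.45), Fosb (-0.36) and Fosl1 (-0.35), and Junb was at 0.01, while 15.0% of all genes were lower and 18.1% higher. A fit of only these 2 groups ended both calls (FDR 0.0747 for Junb and 0.0648 for Ier2). Leaving out N6L culture 2 or 3 did so too (FDR 0.121 and 0.124 for Junb, 0.0753 and 0.115 for Ier2). Without NT culture 1 the Junb call ended (FDR 0.0521), and without NT culture 4 Egr1 was called lower as well (FDR 0.0355), which made 3.

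Transcript length moved with these ratios. Over all genes the median log2 polysome-to-cytoplasm ratio in N6L cells went from 0.65 in the shortest of 10 equal bins of transcript length to -0.86 in the longest, against 0.29 to -0.30 in NT cells. Ier2 (1522 bases) and Junb (1809 bases) are the shortest members and lie in the bin from 1418 to 1852 bases, whose median was 0.40. Ier2 was above 89.6% and Junb above 69.8% of the genes in that bin. Egr1 (4484 bases) and Egr3 (3940 bases) are the longest and lie in a bin with a median of -0.30, near their own values. Egr2 (2965 bases), at -0.40, was farther below its bin, with a median of -0.03 and 22.6% of its genes lower. Fos (2108 bases), at -0.02, lay in a bin with a median of 0.24. Across the 10 members the Pearson correlation of log2 length with the ratio was -0.88, and across 13867 genes with a length it was -0.57. The points share the same 6 libraries and genes are not replicates, so these are descriptions.

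**Figure D3:**
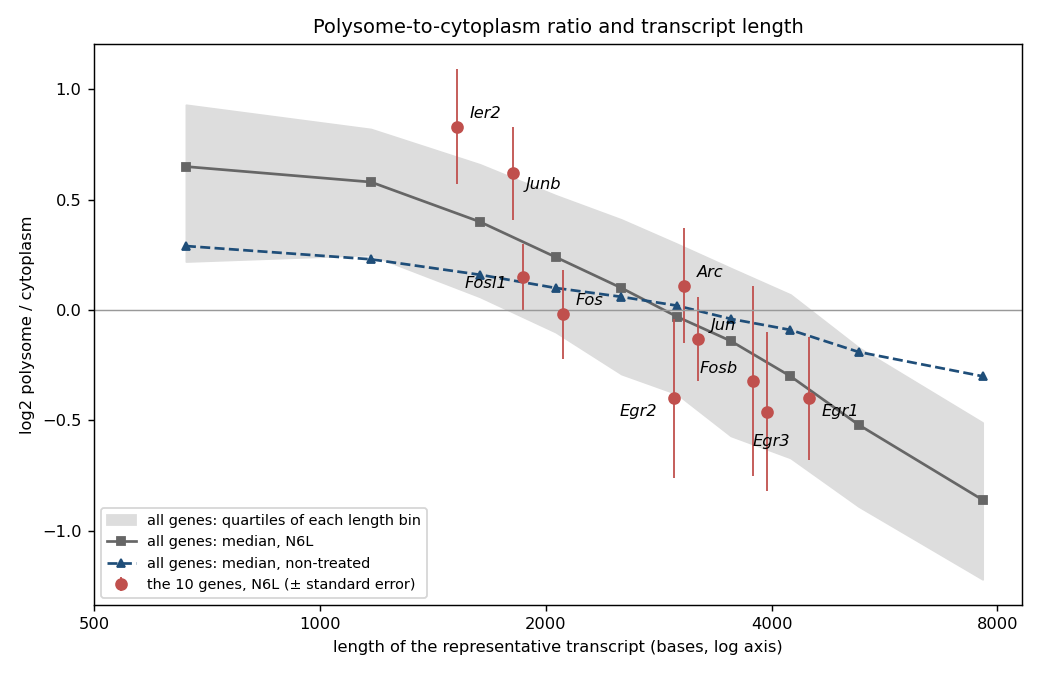
Log2 polysome-to-cytoplasm ratio against the length of the representative transcript (log axis). The grey line and band are the median and quartiles of all genes in N6L cells by length bin, the dashed line the NT medians, and red points the 10 genes in N6L cells with standard errors. Ier2 and Junb lie above the grey line near 0.40, and the 3 EGR mRNAs lie at -0.40 to -0.46 below 0.

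The change of the polysome-to-cytoplasm ratio between treatments, which corresponds to a translational index, was tested as 1 contrast. It contains the cytoplasmic change that chose the members and is not independent of that choice. None of the 10 passed, nor did any of the 13889 genes (0.0%), by edgeR or by DESeq2. At an unadjusted p under 0.05 the main edgeR fit counted 0 members and 1074 of the 13889 genes. At the same limit DESeq2 counted 1 member, and edgeR with the culture as a replicate block 3 members. For these 2 fits the share of all genes at that limit was not counted, so their member counts have no background. Junb (0.60 ± 0.29, unadjusted p 0.058, FDR 0.555) and Ier2 (0.61 ± 0.36, FDR 0.555) had the highest values and Egr3 (-0.88 ± 0.59, FDR 0.563) the lowest. The 3 N6L cultures were above the 3 NT cultures for Junb and Ier2 and below them for Egr3, and 29.7% of all genes were separated in one direction or the other. Fos (0.00 ± 0.28), Fosb (0.00 ± 0.57) and Jun (0.05 ± 0.27) had values near 0, with standard errors as given. With the offset for length and GC, Junb was at 0.15 and Ier2 at 0.10, and with the replicate block the lowest FDR among the members was 0.196.

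**Figure D4:**
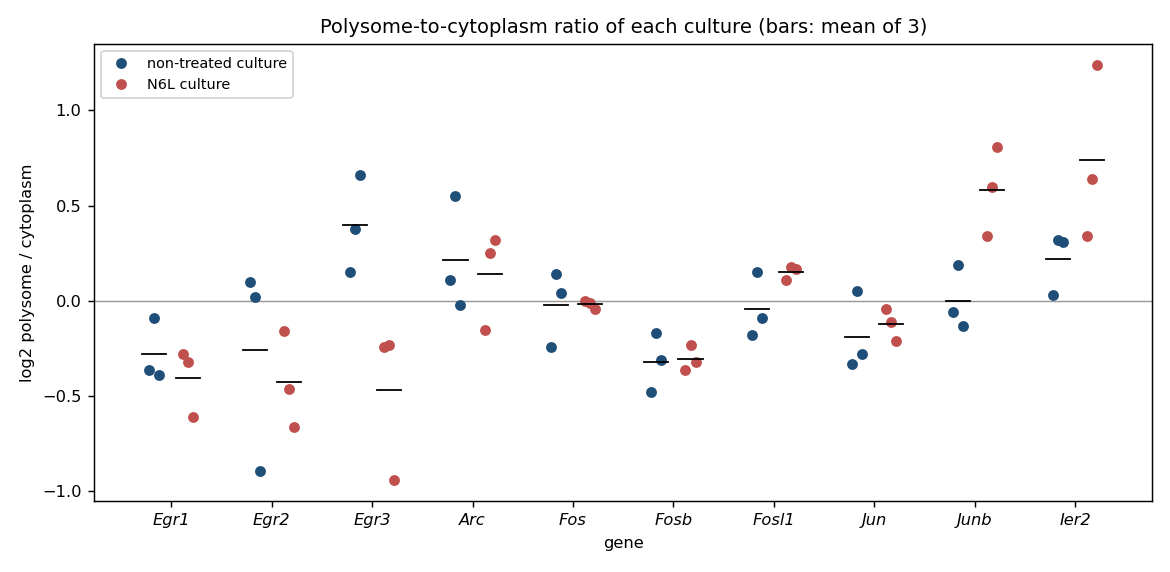
Log2 polysome-to-cytoplasm ratio of each culture, from TMM-scaled CPM, for NT (blue) and N6L (red) cultures, with bars for means. Egr3 was at 0.15 to 0.66 in NT and -0.94 to -0.23 in N6L cultures. Junb (0.34 to 0.81), Ier2 (0.34 to 1.24) and Fosl1 (0.11 to 0.18) were above 0 in all N6L cultures.

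Most other genes of the same class also rose. Of 34 other immediate-early genes 32 were tested, and Egr4 and Npas4 were near 0. In the cytoplasm 24 rose and 1 fell, against 14.5% and 13.8% of all genes, with a median log2 fold change of 1.07. In polysomes 22 rose and 1 fell, against 6.01% and 3.66% of all genes, with a median of 1.00. The polysomal count was 14 without N6L culture 2 and 15 without NT culture 1, all higher. The largest cytoplasmic increases were those of the orphan nuclear receptors Nr4a3 (3.56 ± 0.45, FDR 0.000646, from only 0.198 CPM) and Nr4a1 (2.54 ± 0.30, FDR 0.000493). The antiproliferative Btg2 rose from 62.1 to 307.6 CPM (2.31 ± 0.31, FDR 0.000789), and Zfp36, whose protein destroys mRNAs with AU-rich elements, from 117.8 to 502.9 CPM (2.09 ± 0.26, FDR 0.000507). The EGFR ligand Areg was the 1 that fell (-0.72 ± 0.15, FDR 0.00453). Myc (0.22 ± 0.19) and Ier5 (0.01 ± 0.14), both abundant, did not pass.

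Other AP-1 subunits and dimer partners were mixed. For the counts of this short list, 14.5% of all genes rose and 13.8% fell in the cytoplasm. In polysomes these shares were 6.01% and 3.66%. Of 12 tested, 3 rose in the cytoplasm, the FOS relative Fosl2 (1.31 ± 0.19, FDR 0.00117), the stress-induced Atf3 (1.44 ± 0.29, FDR 0.00465) and Maf (1.25 ± 0.22, FDR 0.00258). The 2 that fell were Batf3 (-1.36 ± 0.44, FDR 0.0334) and Jdp2, a repressor of AP-1 (-0.76 ± 0.18, FDR 0.00893). Batf3 was near the floor, at a mean of 1.16 CPM without and 0.447 CPM with N6L. Neither passed in polysomes (FDR 0.323 for Batf3 and 0.0644 for Jdp2). Jund, the third JUN protein, was at -0.20 ± 0.29 and Maff at 0.52 ± 0.21, neither past the limit. In polysomes 4 rose, these 3 and Maff (0.94 ± 0.21, FDR 0.0152). Atf3 and Maff also belong to the list of other immediate-early genes and were counted there too. The corepressors of EGR proteins, Nab1 (0.43 ± 0.18) and Nab2 (0.10 ± 0.17), did not pass.

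For the signal relay upstream, the shares of all genes called in the cytoplasm (14.5% higher and 13.8% lower) are the background of the counts. Of 12 genes of the SRF and CREB arm, 2 rose in the cytoplasm, Srf itself (0.58 ± 0.17, FDR 0.0235) and its coactivator Mkl2 (1.00 ± 0.28, FDR 0.0184), with a median of 0.16. Crtc2 (0.07 ± 0.14) and Atf1 (0.10 ± 0.19) did not pass. Of 14 MAP kinase genes 3 rose and 2 fell: Rps6ka5 (1.17 ± 0.32, FDR 0.0177) was among the higher, and Rps6ka4 (-0.78 ± 0.21, FDR 0.0162) and Map2k2 (-0.76 ± 0.22, FDR 0.0212) were lower. Mapk14 (0.44 ± 0.13, FDR 0.0194), named after its value was seen, also rose. Mapk3 (-0.08 ± 0.19) and Map2k1 (0.16 ± 0.17) did not pass.

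Among 11 tested genes known as AP-1 targets, 5 rose and 1 fell in the cytoplasm (median 0.57), against 14.5% and 13.8% of all genes. The collagenase Mmp13 (1.30 ± 0.33, FDR 0.0122), the secreted Spp1 (1.04 ± 0.28, FDR 0.015) and the chemokine Ccl2 (0.63 ± 0.20, FDR 0.0329) rose, as did the protease Plau (0.57 ± 0.16, FDR 0.0199), and the inhibitor Timp1 fell (-0.60 ± 0.19, FDR 0.0286), the last pair named after their values were seen. Ccnd1 (-0.29 ± 0.14) and Vegfa (0.29 ± 0.25), both abundant, did not pass. Of 8 proteins that bind AU-rich elements, the 3 destabilizing paralogs rose, Zfp36 as above, Zfp36l1 (1.43 ± 0.23, FDR 0.00172) and Zfp36l2 (1.18 ± 0.20, FDR 0.00218). Hnrnpd (0.03 ± 0.17) and Khsrp (-0.25 ± 0.15) did not, and the median of this list was 0.01. The share of all genes that rose in the cytoplasm was 14.5%.

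**Figure D5:**
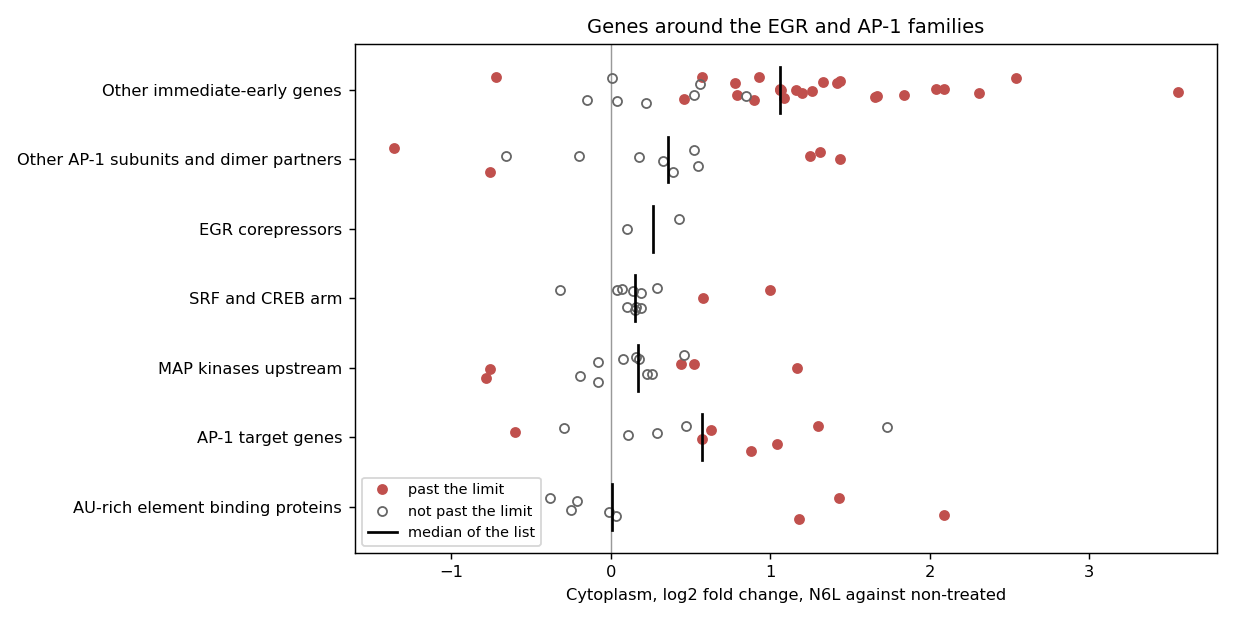
Cytoplasmic log2 fold change under N6L of the tested genes of 7 lists around the EGR and AP-1 families. Filled points passed the limit of 0.05 by edgeR, open points did not, and bars are medians. The other immediate-early genes centre on 1.07, and the MAP kinases and the SRF and CREB arm on 0.17 and 0.16.

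Among all genes other than the members, those whose levels over the 12 libraries were most like the mean of the members were Zfp36 (Pearson r 0.995), Btg2 (0.989), Ccn1 (0.988), Zfp395 (0.982) and Nlgn2 (0.981), of 8949 genes with at least 10 CPM. The first 3 are in the list of other immediate-early genes. Ccn1, a matrix protein, stood at 304.5, 815.7, 274.2 and 887.5 CPM in NT cytoplasm, N6L cytoplasm, NT polysomes and N6L polysomes. Those most like Egr3 were Dennd3 (0.994), Insig1 (0.991) and Ppp1r10 (0.987). Insig1, a brake on sterol synthesis, went from 67.1 to 359.3 CPM in the cytoplasm. The 12 libraries come from 6 cultures in 2 treatments, so a high r mainly restates the difference between treatments.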

How the data were processed

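Poly(A)+ RNA of cytoplasm and pooled polysome fractions from mPDAC cells was sequenced for 3 N6L and 3 non-treated cultures. The authors used bcl2fastq 2.18.0.12, aligned reads with STAR to mm10 per the submitters' processing notes, counted them per gene with HTSeq 0.5.3 and deposited raw counts without normalization, as 4 technical replicates of each of 12 libraries. The annotation, strand and multi-mapping settings of the counting were not stated in the sources used here.

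Technical replicates were summed, as their counts agreed almost within sampling noise (1.02 to 1.04 for chi-square over degrees of freedom). For 3 of them the label fields name different cultures of N6L cytoplasm, and they were kept with culture 2. Their chi-square over degrees of freedom was 1.013 to 1.04 against the unambiguous replicate of culture 2. Against a replicate of culture 1 it was 11.216 to 11.378. Totals ran from 19519911 to 44972333 counts, which bounds the precision of low values such as those of Egr3. Genes were filtered with filterByExpr (13889 kept of 50600), TMM-scaled and modelled in edgeR 4.0.16 under R 4.3.3 (glmQLFit, glmQLFTest, 1 mean per group, no block, all 12 libraries), with a Benjamini-Hochberg limit of 0.05. Standard errors are those of the log2 fold change. CPM are TMM-scaled, and culture ratios use log2 CPM with a prior count of 2. The spread is that between cultures of 1 cell line. Alternatives were DESeq2 1.42.0, RLE factors, library size alone, other filters, technical replicate a alone, conflicting labels left out, only the groups compared, each culture left out, blocks, and offsets for transcript length and GC.

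Both fractions of a culture come from one lysate and are thus paired: after subtraction of group means, the fractions correlated by 0.364, 0.452 and 0.645 for NT cultures and by 0.0368, 0.199 and 0.229 for N6L cultures. The block was an alternative because the study's methods name none.

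Symbols, coordinates and transcripts came from GENCODE vM21 (GRCm38), which matched 50376 of the genes, and promoters from RefSeq. Members and gene lists were chosen with earlier results of these data known. Named genes were all members, and of each list up to 4 past the limit with the largest cytoplasmic change and up to 2 of the highest level not past it. Likeness used genes of at least 10 CPM, 5 for the mean of the members and 3 for Egr3. Some genes that this rule selects, or that the list counts include, are not reported here by name.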

Additional observations from a re-analysis of the deposited data

Results flagged for a closer look

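Egr3 was flagged because its polysome-to-cytoplasm ratio had opposite signs in the 2 treatments. All 3 NT cultures lay above 0 (0.15, 0.38 and 0.66 on the log2 scale) and all 3 N6L cultures below 0 (-0.24, -0.23 and -0.94), a difference of the means of -0.87. The contrast of this difference did not pass (-0.88 ± 0.59, FDR 0.563 by edgeR), and the NT ratios rest on 9 to 78 counts a library. Both sets of ratios also share the cytoplasmic libraries whose change led to the choice of Egr3. No other member had all cultures of one treatment on one side of 0 and all of the other treatment on the other side. Groups of 3 cultures are too small for the test of single outlying samples, so none was made.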

How the results depend on the processing

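For the members in the cytoplasm, the median log2 fold change of 1.52 became 1.66 with library size alone, 1.41 with at least 10 counts in every library (9 members left), 1.35 with the replicate number as a replicate block and 1.31 to 1.60 without 1 culture. Library size alone moved the median of all genes there from 0.04 to 0.19. The number of members called in polysomes, 8 in the main analysis, was 6 to 8 without 1 culture, 7 to 9 under the other alternatives, and 9 with the replicate number as a block, where Fosb joined (FDR 0.0467). Fosb also joined without a filter on low counts (FDR 1.94e-07); that fit left its log2 fold change at 1.25 but gave FDRs down to 5.2e-42 (Egr3), far below those of the other fits, and no call is based on it. Cultures of the same number in the 2 treatments share only that number. Their deviations correlated by 0.228 and 0.0455 in cytoplasm and 0.296 and 0.00756 in polysomes. For polysome against cytoplasm in N6L cells, 2 members were called, but 1 with library size alone, 0 in a fit of only the groups compared, 0 with the offset for length and GC, 5 with the culture as replicate block, 4 with block and offset together, and 0 to 3 without 1 culture. In the fit with block and offset Fosl1 turned from 0.15 to -0.35. In non-treated cells and for the change of the ratio, no member was called under any alternative, the replicate block included. Of the other immediate-early genes, 25 were called in the cytoplasm and 19 to 25 without 1 culture. In polysomes 23 were called, 14 to 23 without 1 culture and 24 with the replicate number as a block. The cause of these differences was not tested. Fits that leave out a culture or group also rest on fewer samples. Depth limits Egr3 alone, which had 9 counts in 1 non-treated library.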
